A study of Homo sapiens with 26 samples.

Results

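Kinesins are motor proteins that hydrolyse ATP to walk along microtubules or to take their ends apart. Mitotic kinesins build, focus and divide the spindle, and their genes are switched on late in the cell cycle. Transport kinesins carry vesicles, organelles and RNA, and some work in cilia. Several mitotic kinesins are known to work beside or under the control of Aurora kinases, a family to which AURKA belongs. The kinesin genes described here are all rows of the deposited table whose symbol is KIF or KIFC followed by a number and, at most, a letter A, B or C. There were 40 such genes among 33562 rows, which were sorted by textbook role into 13 mitotic, 17 transport and 10 other kinesins. CENPE, a mitotic kinesin whose symbol does not follow that pattern, is given only for comparison, and KIF2B, KIF19 and KIF28P were not analysed here.

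The 26 RNA-seq libraries came from 9 MDA-MB-231Luc lines. MDA-MB-231 is an established human line from a breast cancer without hormone receptors or HER2. Each line carried the vector label pLUTZ mRFP and was kept in doxycycline, which turns on the inserted cDNA. The 3 control lines had no AURKA cDNA and the guide label sgCon, and were called Empty, NES-Empty and NLS-Empty (passages 19 to 20). The 6 AURKA lines were clones at passages 32 to 35. WT-AURKA (clones c1 and c2) and NES-AURKA (c1 and c2, with a nuclear export signal) carried the labels MUT2 and sgAURKA2, and NLS-AURKA (c2 and c3, with a nuclear localization signal) carried MUT1 and sgAURKA1. WT-AURKA c2 had 2 libraries and every other line had 3. Passage, guide and cloning therefore cannot be told apart from the presence of AURKA cDNA, nor the guide and cDNA labels from the nuclear signal. Values are RPKM, reads scaled to transcript length and library total, so levels can be compared between genes. Errors are SD over line means unless stated otherwise.

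AURKA itself was at 34.0 to 68.9 RPKM in the control libraries, 15.5 to 37.0 RPKM in NES-AURKA and 38.4 to 105 RPKM in NLS-AURKA. It was at 12.7 to 14.3 RPKM in 4 WT-AURKA libraries and at 84.1 RPKM in the library labelled D of WT-AURKA c1. Whether the row counts cDNA reads beside those of the gene is not given, so it settles no label. Since the library labelled D goes apart from the other WT-AURKA libraries, counts that move without it are given both ways. By the letters in their titles, libraries form a set A to H (8 libraries, each from a different line) and a set I to Z (18 libraries), treated as possible batches. The nuclear RNA MALAT1 stood at 175 to 561 RPKM in A to H but at 6.10 to 33.5 RPKM in I to Z. Libraries D and A (NES-AURKA c2) also stood apart within A to H in mitotic genes, so results are given with and without them where they matter. Estimated depth was 12200000 to 20300000 reads per library. VIM, CD44, CAV1, AXL, MSN and KRT18, which mark MDA-MB-231 cells, were at 32.2 RPKM or more in every library. Of luminal genes, ESR1 and PGR were at most at 0.0221 RPKM, ERBB2 was at 2.25 to 5.06 RPKM, and GATA3, FOXA1 and CDH1 reached 1.80, 2.27 and 15.5 RPKM. Of leukocyte genes, CD3E, ITGAM and PTPRC were at most at 0.128 RPKM, while LYZ reached 0.929 and CD14 1.10 RPKM. Of endothelial genes, CDH5, VWF and TEK were at most at 0.112 RPKM, while PECAM1 reached 1.23 and KDR 4.08 RPKM. Of neuronal genes, RBFOX3 was at most at 0.0166 RPKM, SNAP25, MAP2 and SYT1 reached 0.632, 0.765 and 2.26 RPKM, and TUBB3 was at 5.27 to 17.5 RPKM in all libraries.

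The most abundant kinesin was KIF5B, the widely expressed heavy chain of conventional kinesin, at 57.0 ± 9.50 RPKM (SD, n = 9 lines). KIF2C, a kinesin that takes microtubule ends apart at centromeres, followed at 37.2 ± 4.87 RPKM. KIF20A, a motor of cytokinesis, was at 24.1 ± 3.79 RPKM. It shared its level with KIFC1, a minus-end motor that gathers extra centrosomes (23.7 ± 4.87 RPKM), and with KIF11, the motor that pushes spindle poles apart (23.7 ± 4.43 RPKM). The next were KIF3B, the kinesin-2 subunit (16.6 ± 1.76 RPKM), and KIF1C, a carrier of vesicles and RNA (16.5 ± 2.97 RPKM). Among the mitotic motors that were tested, KIF15, a plus-end spindle motor, was the lowest at 4.43 ± 0.683 RPKM. Among the transport motors that were tested it was KIFC2 at 1.18 ± 0.487 RPKM, and among the others KIF9 at 0.868 ± 0.173 RPKM. In the order of these 29 genes, 25 of 28 neighbouring pairs overlapped within 1 SD. The pairs that did not were KIF5B and KIF2C, KIF2C and KIF20A, and KIF11 and KIF3B. This order is of line means, which pool the letter sets, and it did not hold in every library. KIF2C was above KIF5B in libraries K (53.4 against 47.6 RPKM), L (50.2 against 49.0 RPKM) and X (54.7 against 40.8 RPKM). Within A to H the medians of KIF11 and KIF3B were 19.8 and 18.8 RPKM. KIF20A was lower there, at a median of 12.3 RPKM.

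The other 11 kinesins did not reach 1 RPKM in at least 2 libraries and were tested only in the alternative with no filter on low genes. They included the neuronal motors KIF5A, KIF5C and KIF1A, each at a mean of 0.00397 RPKM or less. KIF17, a dendritic and ciliary motor, was the highest of them at 0.207 ± 0.127 RPKM. Of the summed RPKM of all 40 genes, the mitotic ones made up 42.0% to 57.1% in the A to H libraries and 54.9% to 67.3% in the I to Z libraries. KIF5B alone made up 11.4% to 23.7%.

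**Figure D1:**
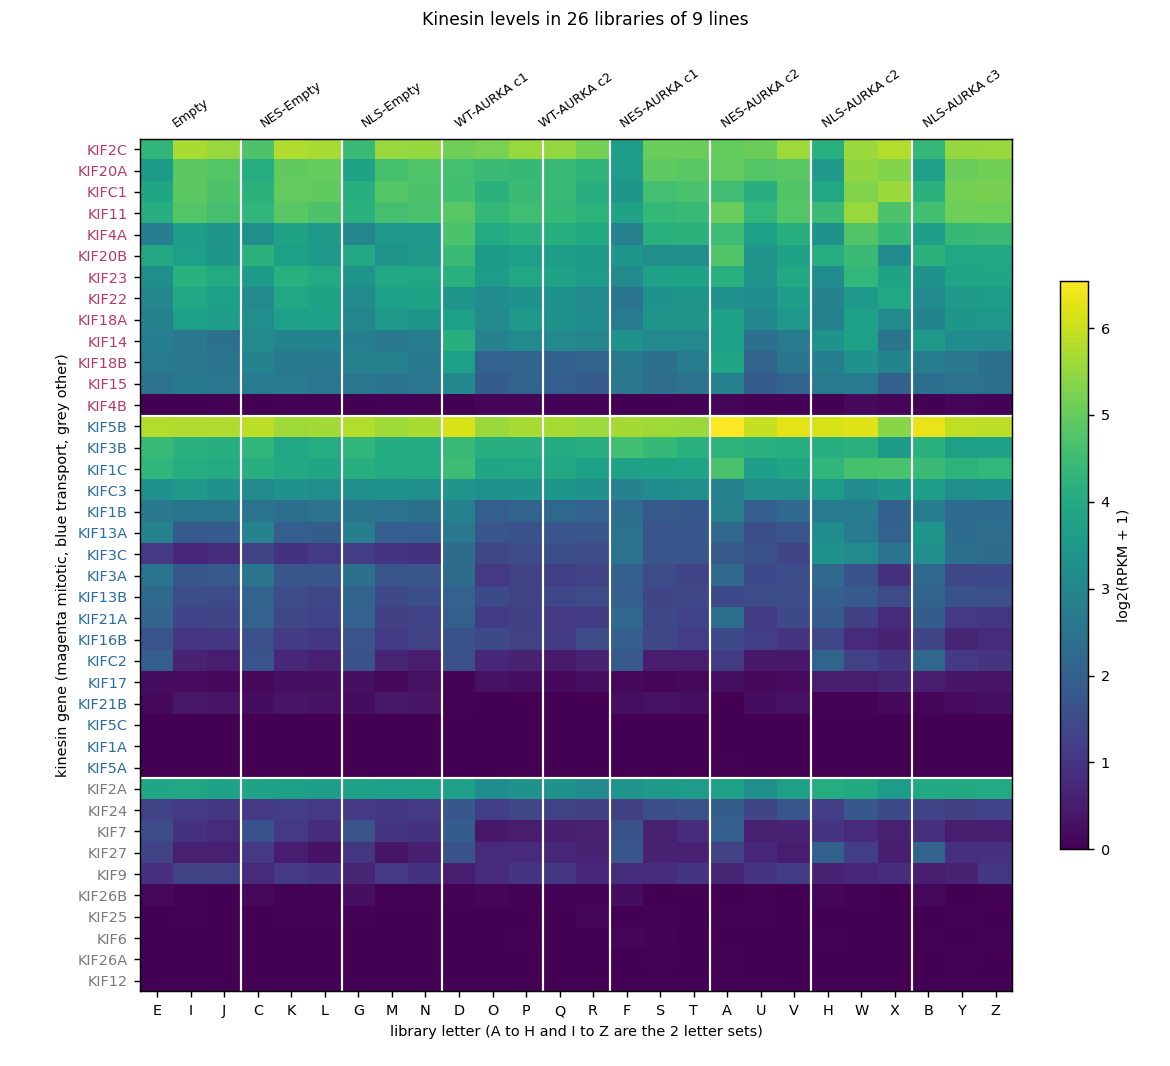
Level of each of the 40 kinesin genes (rows, ordered by mean within each role) in each of the 26 libraries (columns, grouped by line) as log2(RPKM + 1). KIF5B and KIF2C are the brightest rows, and KIF3C is darkest in the control columns (0.666 to 1.55 RPKM) and lightest in the NLS-AURKA columns (up to 9.11 RPKM).

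KIF4A, a chromosome-arm motor that helps condense chromosomes and shape the midzone, has an intronless copy, KIF4B, whose reads could be confused with its own. Their transcripts in GENCODE were identical at 95.27% of 4359 aligned positions. Only 606 of the 4299 stretches of 50 bases in KIF4A also occurred in KIF4B, and no other pair of kinesins shared any. The 90 bases below are a stretch of the coding region where the copies differ at 2 places, shown in capitals because a read must cross such a place to be told apart.
KIF4A: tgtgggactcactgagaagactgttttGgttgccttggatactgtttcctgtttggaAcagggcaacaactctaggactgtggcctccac
KIF4B: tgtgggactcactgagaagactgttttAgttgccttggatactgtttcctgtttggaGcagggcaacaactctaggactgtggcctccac
KIF4A stood at 14.3 ± 3.93 RPKM and KIF4B at 0.0367 ± 0.0174 RPKM. From the estimated depth, the KIF4B values correspond to 0 to 8 reads in a library, with 0 in 3 libraries. How reads matching both were treated is not given in the sources used here.

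Genes that peak in G2 and mitosis often carry a CCAAT box, bound by NF-Y, and a cell cycle genes homology region (CHR), bound by MuvB complexes, near their start. The RefSeq promoter table (GRCh38.p14, 250 bases before to 50 after each start) held 42 promoters of 33 kinesins, and both strands were searched for CCAAT and for TTTGAA or TTTAAA as the CHR. Of the 12 mitotic kinesins tested, 10 had a CCAAT box, 11 a CHR and 9 had both. Of the 9 transport kinesins tested and found in the table, 3, 2 and 1 did. Over the 27305 genes of the table the shares were 39.7%, 27.9% and 11.2%, and over its 35116 single promoters 34.6%, 24% and 9.27%. These are counts of letters in a window and do not show that a site is bound. KIF15 and KIF2C lacked the CCAAT box and KIF22 the CHR. Of the 9 mitotic kinesins with both motifs, 4 are given as examples, and KIF3C stands beside them because it changed most between AURKA and control lines. Capitals mark the motifs on either strand.
KIF20A, chr5:138178862-138179161, plus strand: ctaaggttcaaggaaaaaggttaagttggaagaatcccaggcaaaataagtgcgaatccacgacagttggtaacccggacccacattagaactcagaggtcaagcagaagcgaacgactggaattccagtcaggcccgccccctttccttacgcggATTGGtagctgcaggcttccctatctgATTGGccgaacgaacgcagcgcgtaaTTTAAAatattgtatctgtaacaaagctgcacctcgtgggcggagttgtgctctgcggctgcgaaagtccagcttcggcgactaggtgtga
KIFC1, chr6:33391573-33391872, plus strand: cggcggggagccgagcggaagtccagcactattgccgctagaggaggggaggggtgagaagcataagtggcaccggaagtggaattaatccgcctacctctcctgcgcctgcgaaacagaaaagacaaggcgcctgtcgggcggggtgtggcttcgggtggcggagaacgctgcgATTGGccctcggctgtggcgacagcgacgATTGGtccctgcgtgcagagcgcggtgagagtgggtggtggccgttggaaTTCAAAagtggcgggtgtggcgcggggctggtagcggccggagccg
KIF4A, chrX:70289854-70290153, plus strand: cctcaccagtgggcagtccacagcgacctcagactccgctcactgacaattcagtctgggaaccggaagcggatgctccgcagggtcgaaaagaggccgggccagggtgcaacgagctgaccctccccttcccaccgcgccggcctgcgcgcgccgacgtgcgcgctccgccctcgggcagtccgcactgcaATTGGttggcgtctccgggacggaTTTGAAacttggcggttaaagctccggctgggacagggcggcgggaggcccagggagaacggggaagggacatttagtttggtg
KIF11, chr10:92592880-92593179, plus strand: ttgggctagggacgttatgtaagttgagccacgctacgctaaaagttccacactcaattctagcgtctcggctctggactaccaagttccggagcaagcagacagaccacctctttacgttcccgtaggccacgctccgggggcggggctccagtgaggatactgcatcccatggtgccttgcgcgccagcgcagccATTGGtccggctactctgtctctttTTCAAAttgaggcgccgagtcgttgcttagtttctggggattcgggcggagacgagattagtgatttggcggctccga
KIF3C, chr2:25982448-25982747, minus strand: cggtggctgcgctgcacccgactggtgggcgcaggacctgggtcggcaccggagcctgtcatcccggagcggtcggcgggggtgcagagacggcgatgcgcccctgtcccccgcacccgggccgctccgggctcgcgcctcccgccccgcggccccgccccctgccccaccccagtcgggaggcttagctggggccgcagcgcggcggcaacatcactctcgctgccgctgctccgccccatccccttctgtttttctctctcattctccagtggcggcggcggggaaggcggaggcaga
In KIF4A the CCAAT box began 58 bases and the CHR 34 bases upstream of the start. In KIF11 they began 53 and 28 bases upstream. KIF20A and KIFC1 each had a pair of CCAAT boxes, and the CHR of KIFC1 lay just downstream of the start. Neither motif was found in the window of KIF3C.

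The first comparison asked which kinesins differ between lines with and without AURKA cDNA. KIF3C, a kinesin-2 motor that pairs with KIF3A, and KIF4A were higher in the AURKA lines, and KIF3A, the shared partner in kinesin-2 motors of cilia and axons, was lower. These 3 of 29 tested kinesins (10.3%) passed limma's test at an adjusted p under 0.05, against 19.2% of all 12589 genes tested. The median difference was -0.06 over the kinesins and -0.02 over all genes. These and all later differences are in log2(RPKM + 1), where the added 1 shrinks differences between low values. By role, 1 of 12 mitotic motors was higher, 1 of 12 transport motors was higher and 1 lower, and 0 of 5 others passed. At an unadjusted p under 0.05 there were 8 kinesins. The share of all genes at that unadjusted rule is not given, here or in later comparisons, so such counts have no background. Markers moved with this comparison too. CDH1 had line means of 1.37 to 5.97 RPKM in controls and 0.0320 to 0.294 RPKM in AURKA lines, SYT1 of 0.183 to 0.293 and 0.470 to 1.65 RPKM, MSN of 106 to 109 and 201 to 311 RPKM, and CAV1 of 94.1 to 108 and 129 to 255 RPKM. Their part in the results was not tested.

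KIF3C was at 0.666, 0.963 and 1.55 RPKM in the lowest, median and highest of the 9 control libraries. In WT-AURKA it was at 1.68, 1.80 and 3.96 RPKM in clone c1 and 1.95 and 1.80 RPKM in clone c2. In NES-AURKA it ranged from 1.58 to 4.51 RPKM (median 2.31) and in NLS-AURKA from 4.01 to 9.11 RPKM (median 6.07). All 17 AURKA libraries thus lay above all 9 control libraries, and the NLS-AURKA clones were the highest within each letter set. The line means were 1.05 ± 0.173 RPKM (SD, n = 3) in controls and 3.69 ± 2.14 RPKM (n = 6) in AURKA lines, a difference of 1.06 (SE 0.31, limma adjusted p = 0.0368). It was 0.96 in I to Z alone (adjusted p = 0.0477) and 1.43 in A to H alone (adjusted p = 0.0239). The call ended without library D, F or X, without any 1 control line, NES-AURKA c1 or NLS-AURKA c3, without libraries A and D together, or when low genes were kept in (adjusted p = 0.0507 to 0.136).

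KIF3A was at 2.28, 2.38 and 4.78 RPKM in the lowest, median and highest control library. In WT-AURKA it was at 3.94, 1.11 and 1.39 RPKM in clone c1 and 1.34 and 1.46 RPKM in clone c2. It ranged from 1.55 to 3.70 RPKM in NES-AURKA and from 0.894 to 3.71 RPKM in NLS-AURKA. Pooled, the groups overlapped, since A to H libraries were higher throughout. Within I to Z the controls (2.28 to 2.58 RPKM) lay above every AURKA library (0.894 to 2.13 RPKM), and within A to H likewise (4.32 to 4.78 against 3.04 to 3.94 RPKM). Line means were 3.12 ± 0.142 RPKM in controls and 2.12 ± 0.373 RPKM in AURKA lines, a difference of -0.42 (SE 0.11, adjusted p = 0.0233). The difference was -0.41 within I to Z (adjusted p = 0.0168) and -0.29 within A to H (adjusted p = 0.122). The call also ended without library C, E, G, U or X, without any 1 control line or with no filter (adjusted p = 0.0507 to 0.102).

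KIF3B, which with KIF3A forms the commonest kinesin-2 motor, was at 16.9 ± 0.945 RPKM in controls and 16.5 ± 2.13 RPKM in AURKA lines, a difference of -0.04 (adjusted p = 0.818). Within each library the ratio of KIF3C to KIF3A, which does not depend on library scaling, was 0.240 to 0.488 in controls. It was 1.01 to 1.51 in WT-AURKA, 0.702 to 1.49 in NES-AURKA and 2.30 to 5.13 in NLS-AURKA. KIF3A was thus the more abundant of the pair in every control library and KIF3C in every NLS-AURKA library. The ratio was chosen after the values were seen and has no test. KIFAP3, the accessory subunit that links kinesin-2 motors to cargo, was at 7.77 ± 0.298 RPKM in controls and 4.62 ± 0.370 RPKM in AURKA lines. It fell by 0.63 (SE 0.08, adjusted p = 0.00123), with no overlap within either letter set (I to Z, 8.12 to 9.04 against 3.89 to 5.69 RPKM; A to H, 5.61 to 6.38 against 3.31 to 4.83 RPKM).

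**Figure D2:**
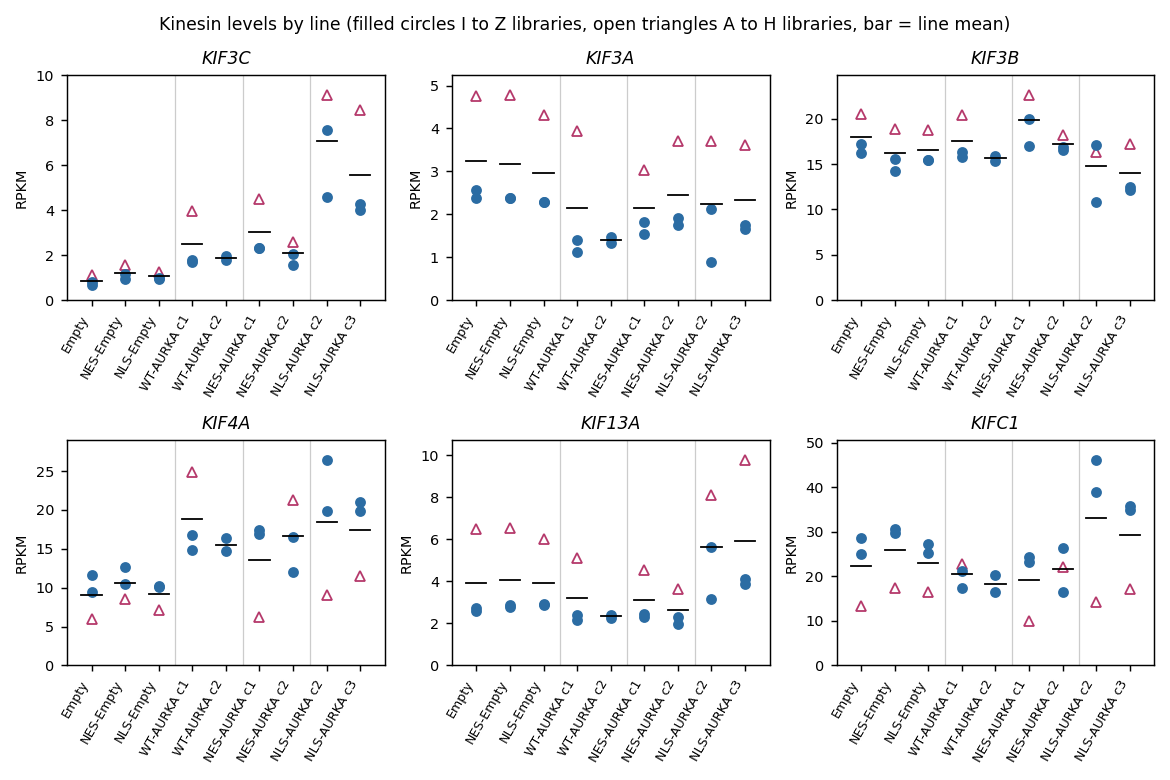
RPKM of 6 kinesins in each library of the 9 lines, with filled circles for I to Z libraries, open triangles for A to H libraries and a bar at each line mean. KIF3C is at 1.58 RPKM or more in every AURKA library, and KIF3A triangles sit above the circles in every line that has both.

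KIF4A was at 5.95, 10.1 and 12.6 RPKM in the lowest, median and highest control library. In WT-AURKA it was at 24.8, 14.9 and 16.8 RPKM in clone c1 and 16.3 and 14.7 RPKM in clone c2. It ranged from 6.26 to 21.2 RPKM in NES-AURKA and from 9.04 to 26.4 RPKM in NLS-AURKA. The groups overlapped through the A to H libraries F, H and B of the AURKA lines and, within I to Z, through library U. Line means were 9.56 ± 0.854 RPKM in controls and 16.7 ± 1.99 RPKM in AURKA lines, a difference of 0.71 (SE 0.12, adjusted p = 0.00396). The difference was 0.65 within I to Z (adjusted p = 0.0156) and 0.78 within A to H, where it did not pass (adjusted p = 0.227). It passed in every other alternative, from 0.63 to 0.78 with each library or line left out. KIF14, a cytokinesis motor, differed by 0.38 (SE 0.12) and missed the threshold (adjusted p = 0.0539). It passed when the letter set was a term of the fit, as did KIF24 and KIF27.

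Of 6 kinesin light chains and accessory proteins, 3 were lower in the AURKA lines and 0 were higher, with a median of -0.37 against -0.02 for all genes. Beside KIFAP3 these were KLC3, a light chain, at 1.28 ± 0.123 against 0.370 ± 0.129 RPKM (-0.74, adjusted p = 0.00105). The other was KIF1BP, which binds kinesin motor domains and keeps them off microtubules, at 14.3 ± 0.910 against 9.89 ± 1.54 RPKM (-0.50, adjusted p = 0.0246). Of 25 subunits and adaptors of dynein, the motor that runs the opposite way, BICD2 (0.59, adjusted p = 0.0110) and DCTN3 (0.46, adjusted p = 0.0250) were higher and DCTN4 (-0.28, adjusted p = 0.0481) was lower. Of 17 spindle partners of mitotic kinesins 0 passed limma's test, with 3 at an unadjusted p under 0.05. Among 16 G2/M genes FOXM1, a transcription factor of mitotic genes, rose by 0.98 (adjusted p = 0.00396) and CCNA2 rose by 0.38 (adjusted p = 0.0406), whereas MYBL2 fell by 1.14 (adjusted p = 0.000687). Among 16 S phase genes E2F1 (0.29, adjusted p = 0.0456) and TYMS (0.64, adjusted p = 0.0407) were higher. The shares that passed were 12% of the dynein list, 18.8% of the G2/M list and 12.5% of the S phase list, all below the 19.2% of all genes, and 50% of the light chains and accessory proteins.

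The next comparisons were between AURKA with different signals. Between NLS-AURKA and NES-AURKA, 9 of 29 kinesins (31%) passed, against 33.2% of all genes, with 7 higher and 2 lower in NLS-AURKA. Of the higher genes 5 were transport motors. The median was 0.27 over the 12 transport motors, with 8 above 0, 0.20 over the 12 mitotic motors, with 11 above 0, and 0.05 over all genes. Between NLS-AURKA and WT-AURKA, 7 of 29 (24.1%) passed, against 36.1% of all genes, with 6 higher and 1 lower. Both contrasts share the NLS-AURKA lines. WT-AURKA c2 has no A to H library, so contrasts that include WT-AURKA are not balanced by letter set even with every library kept in. Within I to Z the counts were 17 and 13, against 37.5% and 38.5% of all genes. Within A to H they were 4 and 1, against 7.83% and 3.07%. Without libraries A and D they were 14 and 15, against 38.6% and 43.2%. Without library D alone they were 14 and 14, with no share of all genes given. Library D is in neither group of the first contrast, so there its removal changes the fit's shared spread and not the differences. Without library D, WT-AURKA has no A to H library while NLS-AURKA keeps H and B. The counts of 15 and 14 against WT-AURKA therefore mix construct and letter set. Without library A, NES-AURKA keeps only F of the A to H set. The A to H fit has library D alone for WT-AURKA, whose spread is taken from the other groups.

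KIF3C was higher in NLS-AURKA than in NES-AURKA by 1.02 (SE 0.16, limma adjusted p = 0.00150) and than in WT-AURKA by 1.18 (SE 0.16, adjusted p = 0.000655). The first difference was 0.97 within I to Z and 1.13 within A to H and passed in every alternative run. The second was 1.09 within I to Z and 0.98 within A to H, where it did not pass (adjusted p = 0.0926).

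KIF13A, a carrier of endosomes and melanosome cargo, was at 3.16 to 5.63 RPKM in the 4 NLS-AURKA libraries of the I to Z set and at 8.13 and 9.76 RPKM in H and B. In I to Z it was at 1.98 to 2.44 RPKM in NES-AURKA, 2.15 to 2.39 RPKM in WT-AURKA and 2.61 to 2.90 RPKM in controls. Within either letter set every NLS-AURKA library was above every other library. Line means were 5.78 ± 0.195 RPKM in NLS-AURKA, 2.87 ± 0.333 RPKM in NES-AURKA and 2.78 ± 0.627 RPKM in WT-AURKA (n = 2 each). WT-AURKA c2 (2.34 RPKM) has no A to H library, while library D of c1 was at 5.13 RPKM. The mean and SD of WT-AURKA therefore partly reflect letter set. NLS-AURKA was higher than NES-AURKA by 0.76 (SE 0.11, adjusted p = 0.000991) and than WT-AURKA by 0.80 (SE 0.11, adjusted p = 0.000669). The first passed in every alternative run, and the second in all but the A to H fit (0.69, adjusted p = 0.0856).

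KIFC2, a minus-end motor, was at 0.975 to 1.46 RPKM in NLS-AURKA against at most 0.693 RPKM elsewhere in I to Z. In A to H it was at 3.29 and 3.62 RPKM against at most 2.92 RPKM. The differences were 0.64 from NES-AURKA (SE 0.14, adjusted p = 0.00878) and 0.68 from WT-AURKA (SE 0.14, adjusted p = 0.00599). They did not pass within A to H (adjusted p = 0.125 and 0.292) or without library B (0.0893 and 0.0677), and the first also not without library H or NLS-AURKA c2. KIF16B, a carrier of early endosomes, moved the other way. It was at 0.540 to 0.761 RPKM in the I to Z libraries of NLS-AURKA and at 1.02 RPKM or more in the other I to Z libraries. NLS-AURKA was lower by 0.43 (SE 0.11, adjusted p = 0.0175) than NES-AURKA and by 0.44 (SE 0.11, adjusted p = 0.0146) than WT-AURKA. Neither call held within A to H (adjusted p = 0.278 and 0.513), and the first also ended without library A or X, NES-AURKA c1 or either NLS-AURKA clone (adjusted p = 0.0512 to 0.087) and the second without library R, WT-AURKA c1 or either NLS-AURKA clone (0.0566 to 0.0783).

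KIF1C was at 17.8 to 24.3 RPKM in NLS-AURKA and at 11.5 to 15.9 RPKM elsewhere in I to Z. In A to H the NLS-AURKA libraries (19.0 and 21.1 RPKM) lay inside the range of the others (12.4 to 24.5 RPKM). KIF1C differed by 0.52 from NES-AURKA (SE 0.13, adjusted p = 0.0155) and by 0.48 from WT-AURKA (SE 0.13, adjusted p = 0.0207). Within A to H these differences were 0.18 and -0.13 and did not pass, so the second turned sign there. The first call also ended without library U or NLS-AURKA c2, and the second without library O, P or U, NLS-AURKA c2 or WT-AURKA c2 (adjusted p of KIF1C 0.0543 to 0.144). KIF2A, which takes microtubule ends apart at spindle poles and in neurons, was at 14.3 ± 0.595 RPKM in NLS-AURKA, 10.7 ± 0.417 RPKM in NES-AURKA and 9.11 ± 0.933 RPKM in WT-AURKA. Its differences were 0.40 (SE 0.10, adjusted p = 0.0122) and 0.61 (SE 0.10, adjusted p = 0.00144). Neither passed within A to H (0.46, adjusted p = 0.103, and 0.32, adjusted p = 0.34), nor did the first without library U or NLS-AURKA c3 (KIF2A adjusted p = 0.0537 and 0.0796). Controls lay at 12.5 ± 0.659 RPKM, between the constructs. KIFC3, a minus-end motor at cell junctions, passed only against NES-AURKA (0.30, SE 0.09, adjusted p = 0.0241). It did not pass within I to Z (0.08, adjusted p = 0.476). Nor did it pass without library A, B, E, F or H, or without A and D together (KIFC3 adjusted p = 0.0564 to 0.0874). The call also ended without NLS-AURKA c2 (0.32) or c3 (0.29), fits that leave 1 line of NLS-AURKA. KIF3B was lower in NLS-AURKA than in NES-AURKA by 0.36 (SE 0.10, adjusted p = 0.0249), and without library X by 0.26 (adjusted p = 0.136). It also missed the threshold without library C, NES-AURKA c1 or either NLS-AURKA clone, and within A to H (KIF3B adjusted p = 0.0645 to 0.302).

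Of the 12 tested motors sorted as mitotic, KIFC1 alone passed in the fit to all libraries. KIF2A, which also works at spindle poles, was sorted among the other kinesins. KIFC1 was at 34.9 to 46.1 RPKM in NLS-AURKA and at most at 30.6 RPKM elsewhere in I to Z. In A to H it was at 14.3 and 17.1 RPKM, inside the range of the other libraries (9.98 to 22.7 RPKM). The differences were 0.53 from NES-AURKA (SE 0.12, adjusted p = 0.00818) and 0.55 from WT-AURKA (SE 0.12, adjusted p = 0.00652). Within I to Z they were 0.77 and 1.01, and within A to H 0.06 and -0.52, neither of which passed there. The first call also ended without library X or NLS-AURKA c2, and the second without NLS-AURKA c2 or WT-AURKA c2 (KIFC1 adjusted p = 0.0532 to 0.0617). Within I to Z 7 of 12 mitotic motors were higher in NLS-AURKA than in NES-AURKA and 0 lower: KIFC1, KIF11, KIF4A, KIF20B, KIF2C, KIF20A and KIF22, by 0.26 to 0.77. Against WT-AURKA 7 of 12 were also higher there, with KIFC1 at 1.01, KIF20A at 0.86 and KIF11 at 0.73. Of all genes, 37.5% and 38.5% passed in these contrasts within I to Z, in either direction. Within A to H the medians of the 12 mitotic motors were -0.13 and -0.73, with 4 and 0 of 12 above 0. In A to H, NES-AURKA is libraries A and F, and WT-AURKA is library D alone. The mean log2(RPKM + 1) of the 12 was 4.20 in A and in D but 3.14 in F. It was 3.44 and 3.56 in H and B of NLS-AURKA, so the lower medians in A to H rest on libraries A and D. The calls there were KIF3C, KIF13A and KIFC3 higher and KIF7, a regulator of Hedgehog signalling, lower against NES-AURKA, and KIF7 lower against WT-AURKA. The difference between the letter sets in these contrasts was not tested.

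**Figure D3:**
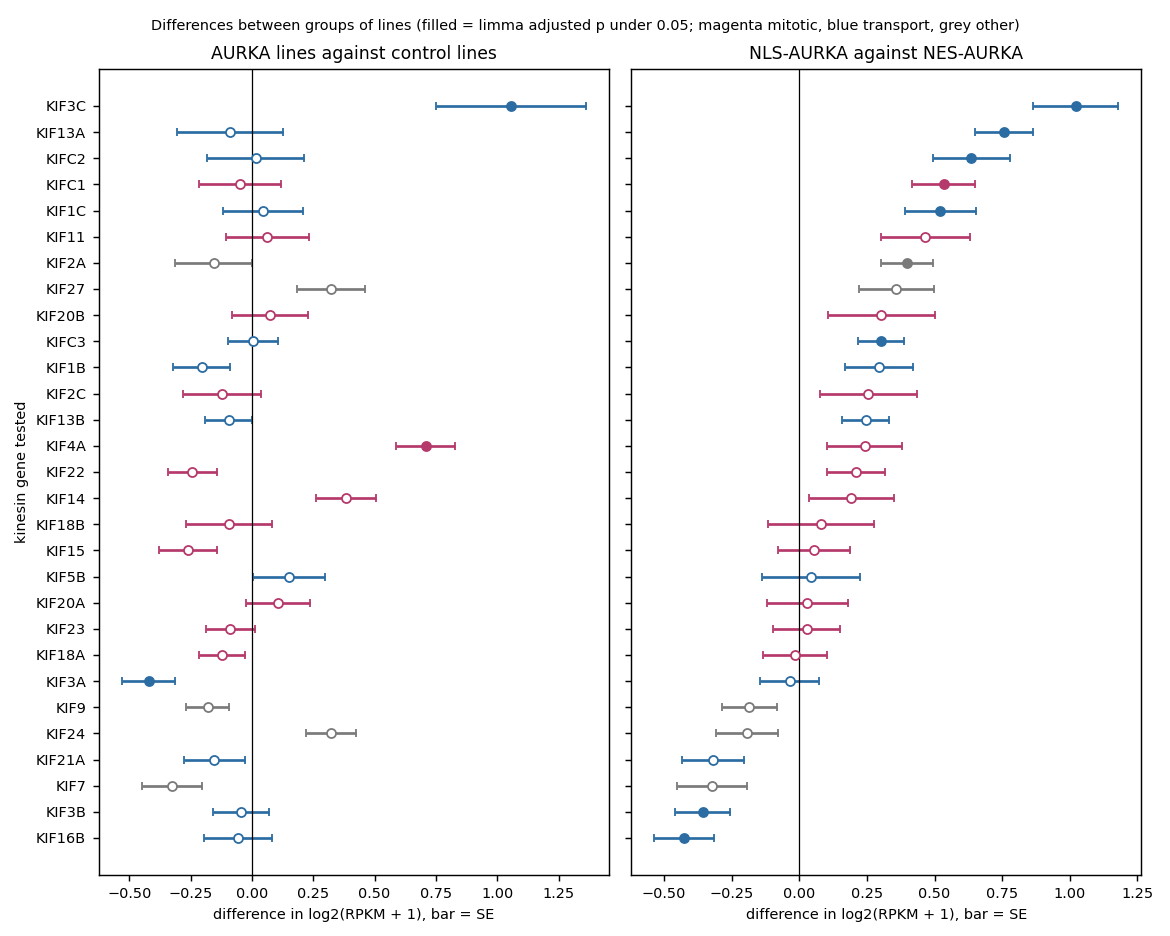
Difference in log2(RPKM + 1) of the 29 tested kinesins, with bars of 1 SE, between AURKA and control lines (left) and between NLS-AURKA and NES-AURKA (right); filled points passed an adjusted p under 0.05 in limma. KIF3C is at the top of both panels (1.06 and 1.02), while KIF4A and KIF3A are filled on the left only.

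Between NES-AURKA and WT-AURKA 0 of 29 kinesins passed limma's test, against 4.87% of all genes, and 4 were at an unadjusted p under 0.05. The largest difference was -0.42, in KIF2C, and the lowest adjusted p was 0.107. Without library D, 21.5% of all genes passed and 6 kinesins were higher in NES-AURKA: KIF15, KIF18B, KIF21A, KIF2A, KIF3A and KIF7. Library D is the only A to H library of WT-AURKA, so without it that group has I to Z libraries only. NES-AURKA keeps A and F, so construct and letter set are then mixed. Within I to Z alone 0 kinesins passed. Between the letter sets, KIF15, KIF18B, KIF21A, KIF3A and KIF7 passed as higher in A to H, and KIF2A differed by 0.11 without passing. Among all genes that passed with every library kept in, 32.1% were higher in NES-AURKA as deposited, 52.6% after median-of-ratios scaling and 52.8% after scaling to a common sum.

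Each clone was then set against the control line with the same signal, with a call at an adjusted p under 0.05 and an absolute log2 difference of at least 1. KIF3C passed in both NLS-AURKA clones, by 1.94 in c2 (limma adjusted p = 3.17e-05) and 1.62 in c3 (adjusted p = 0.000252). It was the 1 kinesin of 29 to do so, against 4.51% of all genes. In both WT-AURKA clones 0 of 29 passed (2.62% of all genes) and in both NES-AURKA clones 0 of 29 (1.7%). At an unadjusted p under 0.05 in both clones and the same direction there was 1 kinesin in each. KIF3C differed from the matched control by 0.85 and 0.63 in the WT-AURKA clones and by 0.83 and 0.47 in the NES-AURKA clones. Clones of the same construct differed in 0 kinesins for WT-AURKA (0% of all genes), 0 for NES-AURKA (1.08%) and 0 for NLS-AURKA (0%). At an unadjusted p under 0.05 these counts were 0, 1 and 0. Libraries of a line are not stated to come from separate cultures, so these p-values may measure technical spread. The fit for these clone tests had no letter-set term, so its spread also holds the difference between A to H and I to Z. WT-AURKA c2 has no A to H library, while c1 has D. The counts of 0 between clones therefore do not show that the clones are alike.

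The mean level of mitotic motors and that of other G2/M genes were highest, and lowest, in the same libraries. The mean of log2(RPKM + 1) over the 12 tested mitotic kinesins was highest in library W of NLS-AURKA c2 (4.37), followed by A and D (4.20 each). It was lowest in library F of NES-AURKA c1 (3.14). The mean of 16 G2/M genes was 5.30 in W, 5.23 in A, 5.22 in D and 4.11 in F. In the other A to H libraries the mitotic mean was 3.14 to 3.61, so A and D lay apart from them. Over the 9 line means of the I to Z set, the Pearson r with the G2/M mean was 0.97 for KIFC1, 0.96 for KIF20A, 0.90 for KIF18B and 0.87 for KIF11. It was lower for KIF20B (0.37), KIF4A (0.34) and KIF14 (0.30). The median r over the 66 pairs of mitotic kinesins was 0.51, and over the 66 pairs of transport kinesins 0.04. KIF13A reached 0.85 and KIF16B -0.82 with the G2/M mean. These values describe 9 lines, some of which share a construct, and levels of all genes in a library share its scaling. The share of cells in mitosis and the RNA per cell cannot be told apart in bulk RNA.

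**Figure D4:**
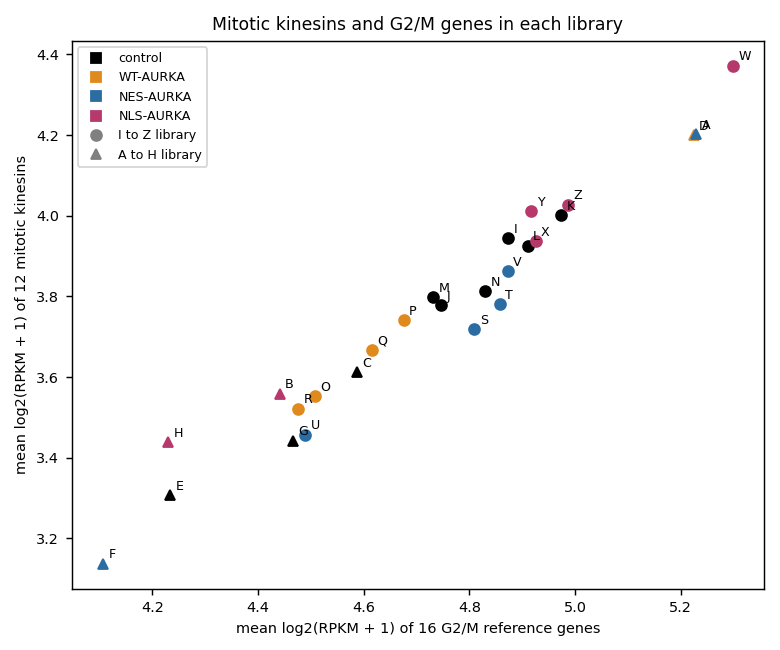
Mean log2(RPKM + 1) of the 12 tested mitotic kinesins (y axis) against that of 16 G2/M genes (x axis) in each of the 26 libraries, coloured by construct, with triangles for A to H. Library W is at the upper right at 4.37 and 5.30, A and D next to it, and F at the lower left at 3.14 and 4.11.

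Most kinesins passed between the letter sets. That fit used all 26 libraries rather than line means, so its counts are not comparable with those between constructs. With line held fixed, 26 of 29 kinesins (89.7%) differed between the 8 A to H and 18 I to Z libraries, against 73.2% of all genes. In the values as deposited, 8 of 12 mitotic motors were lower in A to H and 4 higher (median -0.36). After median-of-ratios scaling 4 were lower and 4 higher (median -0.14), and after scaling to a common sum 3 were lower and 4 higher (median 0.0086). Of the 12 transport motors 11 were higher and 0 lower as deposited, and 12 and 0 under either scaling. KIF2C differed by -1.0, KIF20A by -0.92 and KIFC1 by -0.72, whereas KIFC2 differed by 1.07, KIF27 by 0.87, KIF13A by 0.87 and KIF3A by 0.80. The 4 mitotic motors that were higher were KIF20B (0.52), KIF18B (0.47), KIF14 (0.45) and KIF15 (0.29). CENPE, a large kinetochore motor outside the symbol pattern, was at 8.50 to 21.1 RPKM in A to H and at 0.772 to 3.68 RPKM in I to Z. MKI67, a proliferation marker, was at 21.3 to 64.4 and 0.674 to 8.15 RPKM, so both were higher in the set where most mitotic motors were lower as deposited, while the G2/M list as a whole was lower in A to H for 11 of 16 genes and higher for 2.

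The median over all genes was -0.09 as deposited, 0.08 after median-of-ratios scaling and 0.20 after scaling to a common sum. The share of higher genes among those that passed went from 41.0% to 58.8% and 71.2%. KIF11 (-0.31) and KIF18A (-0.34) changed sign to 0.08 and 0.02 under the common sum. KIF4A, KIF11, KIF18A and KIF23 did not pass under either scaling, nor KIF22 and KIF9 under the common sum. KIF2C, KIF20A and KIFC1 were lower in A to H under both. Transcript length moved with the split. The 17 kinesins higher in A to H had a median longest coding transcript of 6103 bases (GENCODE), with KIFC2 the shortest at 3566 bases, and the 9 lower ones a median of 3357 bases. Across the 29 genes the Pearson r between log length and the difference was 0.61 and between GC content and the difference -0.01, and genes are not independent replicates. The part of length in the split was not tested.

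**Figure D5:**
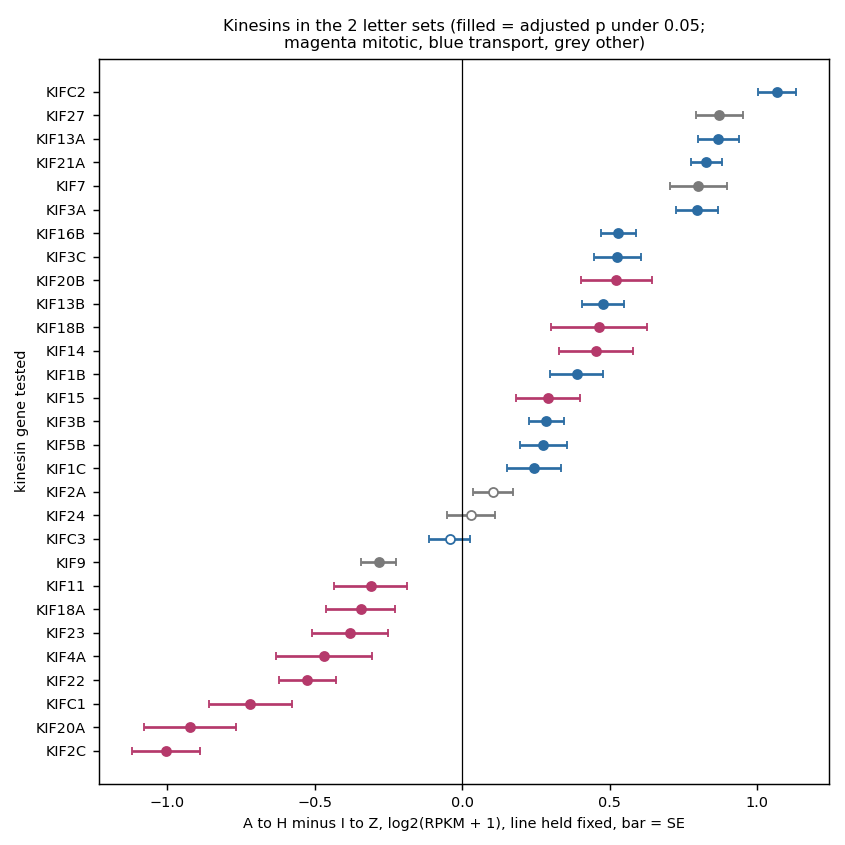
Difference in log2(RPKM + 1) between A to H and I to Z libraries for the 29 tested kinesins, with line held fixed and bars of 1 SE; filled points passed an adjusted p under 0.05 in limma. In these values as deposited, mitotic motors (magenta) take the lowest places, KIF2C at -1.0, and transport motors (blue) most of the highest, KIFC2 at 1.07.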

How the data were processed

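RNA-seq libraries were made with the KAPA mRNA Hyper Prep kit, per the labels' protocols. Per the submitters' processing notes, the tools were HISAT2, SAMtools and Partek and the build hg19. Versions, annotation, strandedness and the treatment of multi-mapping reads are not stated in what was read here. RPKM values were deposited by the authors as a single table. No counts were used, so no count test was run. Depth was estimated from the value of 1 read in low genes of known transcript length (67.7% to 72.7% of those values lay within 0.05 reads of a whole number).

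Genes reaching 1 RPKM in at least 2 libraries were tested (12589) with limma 3.58.1 (R 4.3.3, mean-variance trend) on log2(RPKM + 1), with Benjamini-Hochberg adjustment over all of them. Comparisons of constructs used 1 value per line, in a fit of 2 arms or of 4 groups. Clones, letter sets and the differences between construct effects used all 26 libraries. The fits recovered known changes in simulated data, but no rate of recovery or of false calls is given here. That result therefore does not vouch for the fits on these libraries. Alternatives were the pseudocount, filter, scaling, letter set, a robust fit, and leaving out libraries or lines. Kinesins that passed are named, with those at either end of each role; of other lists, those that passed between AURKA and control lines, plus CENPE, AURKA and FOXM1. Members and lists were chosen with earlier results of these data known. Some listed genes are not reported here.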

Additional observations from a re-analysis of the deposited data

Results flagged for a closer look

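Among the 6 AURKA lines, 3 of 29 kinesins had a line far from the other 5 by Dixon's test; chance flags about 1 in 20 such groups. KIF15 was at 2.83 RPKM in WT-AURKA c2 and KIF3A at 1.40 RPKM in the same line, which has no A to H library. Within I to Z, KIF15 was at 2.91 and 2.76 RPKM in c2 and at 2.80 and 3.29 RPKM in c1, whose library D was at 7.24 RPKM. KIF3A was at 1.34 and 1.46 RPKM in c2 and at 1.11 and 1.39 RPKM in c1 there. Neither gene thus set c2 apart from c1 within I to Z. KIF3A was higher in A to H in every line that has both sets. KIF2C was at 25.3 RPKM in NES-AURKA c1, the lowest of the 6. Its library F was the lowest of A to H, at 11.5 RPKM. Its libraries S and T were the lowest of I to Z, at 31.9 and 32.6 RPKM. Library U of NES-AURKA c2 was close to them at 32.9 RPKM.

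The effect of AURKA lines against their matched control was also compared between constructs, in 87 differences over the 29 kinesins, a comparison added after the data were seen. It used all 26 libraries as replicates, with 1 control line per construct. Spread between lines is therefore not in its p-values, which may measure technical spread. It had no letter-set term either, and WT-AURKA c2 has no A to H library. KIF3C rose more in NLS-AURKA than in NES-AURKA, with effects of 1.78 and 0.65 and a difference of 1.13 (limma adjusted p = 0.0431); against WT-AURKA the difference was 1.04 (adjusted p = 0.0630). For KIF2A the effects were 0.22 in NLS-AURKA and -0.51 in WT-AURKA, a difference of 0.72 (adjusted p = 0.0178). Of all genes, 7.15% and 8.16% passed in these contrasts, against 3.45% of the kinesins (1 of 29) in each.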

How the results depend on the processing

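The count of kinesins between AURKA and control lines (3) was 1 with no filter on low genes and within A to H, and 6 with a letter-set term. Leaving out 1 library or line gave 1 to 5. Between NLS-AURKA and NES-AURKA (9) it was 17 within I to Z, 4 within A to H and 14 without libraries A and D, and 3 to 16 with 1 library or line left out. Between NLS-AURKA and WT-AURKA (7) it was 13, 1 and 15, and 4 to 14. Between NES-AURKA and WT-AURKA (0) it was 1 without libraries A and D, and 0 to 6. The highest counts came without library D, except 16 (without line NES-AURKA c2) and 5 (without library A or R); the lowest were 1 without library X or any control line, and 3 and 4 without NLS-AURKA c2. Leaving out libraries A and D was chosen after seeing the data. For most of these counts the share of all genes under the same setting is not given, so they have no background. Without library D, WT-AURKA has I to Z libraries only, so counts against it then mix construct and letter set. Of single values, KIF1C (-0.13, adjusted p = 0.872) and KIFC1 (-0.52, adjusted p = 0.514) turned sign between NLS-AURKA and WT-AURKA within A to H, where WT-AURKA is library D alone; the cause was not tested. Between the letter sets 23 to 26 kinesins passed with 1 line left out. The counts for both clones against their control (0, 0 and 1) were the same under all alternatives run, and those between clones (0) with each library left out. With each AURKA line blocked with the control of the same signal, 4 kinesins passed between AURKA and control lines, KIF24 in addition. Libraries could not be paired by replicate, since no library letter is shared between lines.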

Other observations

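KIF7, which regulates GLI factors at the cilium tip, was at 1.04 ± 0.347 RPKM (SD, n = 9 lines), KIF27 at 1.02 ± 0.420 RPKM and KIF24, which holds back cilium formation, at 1.55 ± 0.378 RPKM. KIF17 did not reach the filter. It was tested only with no filter on low genes, where it passed as higher in NLS-AURKA than in NES-AURKA and WT-AURKA. Its values were 0.266 to 0.622 RPKM in the 6 NLS-AURKA libraries and at most 0.240 RPKM in the other 20. The shares of all genes that passed with no filter, or that split this way, are not given here.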
